A study of Mus musculus with 6 samples.

Results

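The cerebellins Cbln1, Cbln2, Cbln3 and Cbln4 were described in fetal gonads of wild-type and Sox9 mutant mice. A probe set, the group of array probes summarised into 1 value, was taken for a member where the array annotation gave it exactly 1 gene and that gene was a cerebellin. This gave 1 probe set for each of the 4 genes, among 19937 genes with a probe set of their own. The family was chosen by its log2 values in mutant against wild type, with that difference already known, so its values in the contrast are a description and carry no test. Whole gonads, separated from the mesonephros, were taken at E13.5 (embryonic day), when the wild-type testis holds Sertoli cells in cords, Leydig cells and germ cells. Of 6 arrays, 3 carried pools of 12 gonads of genotype Sox9flox/flox; Sf1:creTr/+, called the Sox9 mutant, and 3 carried pools of 6 wildtype gonads; both groups were on a mixed background of C57BL6/J and 129. In the mutant, Cre recombinase under control of Sf1 (Nr5a1), a gene of the somatic cells of gonad and adrenal, acts on floxed alleles of Sox9. No group carried the Cre or the floxed alleles alone, pool size went with genotype, and the labels name neither embryo sex, litter nor batch. The p-values below set each difference against the spread between these pools, which may be technical. They cannot tell an effect of lost Sox9 from one of pool size, Cre or floxed alleles.

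Cerebellins are secreted glycoproteins with a C1q domain, the globular fold that also forms the heads of complement C1q. In the cerebellum Cbln1 is released by granule neurons and helps to hold together the synapses that these neurons form on Purkinje cells, and Cbln3 leaves the cell only in complexes with Cbln1. Cbln4 has been described in Sertoli cells of the mouse fetal testis, where SRY and SOX9 were reported to bind upstream of the gene. Sertoli cells are the supporting cells that SOX9 directs into the testis pathway.

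The promoter table of RefSeq (GRCm38.p6) held 2 of the 4 members, Cbln4 and Cbln3, and both are shown because the first differed between the genotypes and the second had overlapping groups. Each line gives the 250 bases before the annotated gene start, 5′ to 3′ on the strand of the gene. The Cbln4 window is chr2:172043467-172043716 (minus strand) and the Cbln3 window is chr14:55884257-55884506 (minus strand). Capitals mark a match to AACAAT, the core that SRY and other SOX proteins favour, or to ACAAAG, searched on both strands.
Cbln4: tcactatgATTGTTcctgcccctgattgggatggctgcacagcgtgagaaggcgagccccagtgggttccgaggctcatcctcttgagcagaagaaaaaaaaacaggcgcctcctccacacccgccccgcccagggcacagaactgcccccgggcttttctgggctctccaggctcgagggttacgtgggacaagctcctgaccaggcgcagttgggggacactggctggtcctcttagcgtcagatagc
Cbln3: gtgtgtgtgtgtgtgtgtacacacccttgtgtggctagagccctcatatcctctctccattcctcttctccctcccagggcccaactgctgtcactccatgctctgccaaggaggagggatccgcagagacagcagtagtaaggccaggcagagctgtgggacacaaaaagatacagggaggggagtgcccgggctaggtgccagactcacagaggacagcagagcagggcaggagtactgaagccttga
The Cbln4 window held 1 match, ATTGTT, the reverse complement of AACAAT, which lies 242 to 237 bases before the gene start. The Cbln3 window held none of these letters. AACAAT occurred in 9.42% of the 32851 promoter windows of the same length, ACAAAG in 16.5%, and either in 24.0%. The 2 motifs were chosen with the Cbln4 window in view. A match is a description of letters and not evidence of binding.

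Sox9 was lower on every mutant array, at 7.52, 7.78 and 7.60 log2 on mutants 3, 4 and 6, against 8.82, 8.81 and 9.20 log2 on wild types 1, 2 and 5. The fall was -1.31 ± 0.14 log2 (SE), with a limma adjusted p = 0.00124. Array numbers are those of the labels. Levels are log2 values of RMA, which corrects background, equalises the arrays' distributions and summarises probes. Such values compress differences near background and say nothing of a general change in RNA content. Background was marked at 6.67 log2, below which 95% of the probe sets of olfactory and vomeronasal receptors had their means. Sox9 stayed above this mark on all 3 mutant arrays. Of genes chosen after their values were seen, the Y-linked Eif2s3y lay between 9.59 and 9.73 log2 in the mutant and between 9.56 and 9.77 log2 in wild type. The Y-linked Uty ran from 8.02 (mutant 3) to 8.85 log2 (mutant 6), and from 8.33 to 8.51 log2 in wild type. Kdm5d, also Y-linked, ran from 7.98 (mutants 3 and 4) to 8.46 log2 (mutant 6), and from 8.16 to 8.41 log2 in wild type. Xist, the RNA of the inactive X chromosome, measured 7.29 log2 on mutant 3, and at most 5.48 log2 on each of the other 5 arrays. The liver genes Alb and Afp measured 11.42 and 11.26 log2 on wild type 5 and at most 6.60 and 6.33 log2 on the other 5 arrays. Mutant 3 thus stood apart in Xist and wild type 5 in Alb and Afp, and the cerebellin values are given with and without these arrays.

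Cbln1 and Cbln4 were lower in Sox9 mutant gonads on every array, while Cbln2 and Cbln3 stayed below the background mark in both genotypes. Cbln1 measured 6.41, 8.72 and 6.73 log2 on mutants 3, 4 and 6, against 10.65, 10.50 and 10.44 log2 on wild types 1, 2 and 5. The wild-type arrays were nearly equal and the mutant arrays were not: mutant 4 lay between the wild-type values and the other two mutants. The means were 7.28 ± 1.25 log2 in the mutant and 10.53 ± 0.11 log2 in wild type (SD, n = 3 each), a difference of -3.25 ± 0.49 log2 (SE) or 9.48-fold. Even the nearest arrays of the 2 groups, mutant 4 and wild type 5, were 1.73 log2 apart. Taken singly, mutants 3, 4 and 6 were 17.4-fold, 3.51-fold and 13.9-fold below the wild-type mean. On mutant 3 Cbln1 was under the background mark and on mutant 6 just above it, so the size of its difference there is limited by the array.

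Cbln4 measured 7.34, 7.84 and 7.50 log2 on mutants 3, 4 and 6, against 9.52, 9.24 and 9.77 log2 on wild types 1, 2 and 5. All 6 values were above the background mark, and the groups were 1.40 log2 apart at their nearest. The means were 7.56 ± 0.26 log2 in the mutant and 9.51 ± 0.27 log2 in wild type (SD, n = 3 each), a difference of -1.95 ± 0.17 log2 (SE) or 3.87-fold. Unlike Cbln1, its mutant arrays spread no more widely than its wild-type arrays, with ranges of 0.51 and 0.53 log2, where the ranges of Cbln1 were 2.31 log2 in the mutant and 0.21 log2 in wild type. By size of decrease Cbln1 stood at place 8 and Cbln4 at place 38 of 19937 genes.

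Cbln2 measured 6.20, 6.28 and 5.68 log2 on mutants 3, 4 and 6, against 6.24, 6.36 and 6.51 log2 on wild types 1, 2 and 5. The groups overlapped, since mutant 4 was above wild type 1. The difference was -0.32 ± 0.17 log2 (SE), and it rested largely on mutant 6, being -0.13 log2 without that array. Cbln3, the partner that depends on Cbln1 for its secretion in the cerebellum, measured 6.63, 6.28 and 6.35 log2 on mutants 3, 4 and 6. On wild types 1, 2 and 5 it measured 5.99, 6.29 and 6.40 log2. These groups overlapped too (difference 0.19 ± 0.15 log2, SE). Its difference was 0.09 log2 without mutant 3 and 0.08 log2 without wild type 1. At these levels the array allows no statement on whether either gene is expressed. Thus 2 of the 4 members had groups that did not overlap, as did 28.7% of all 19937 genes, and nothing is read from that count because the contrast chose the family.

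**Figure D1:**
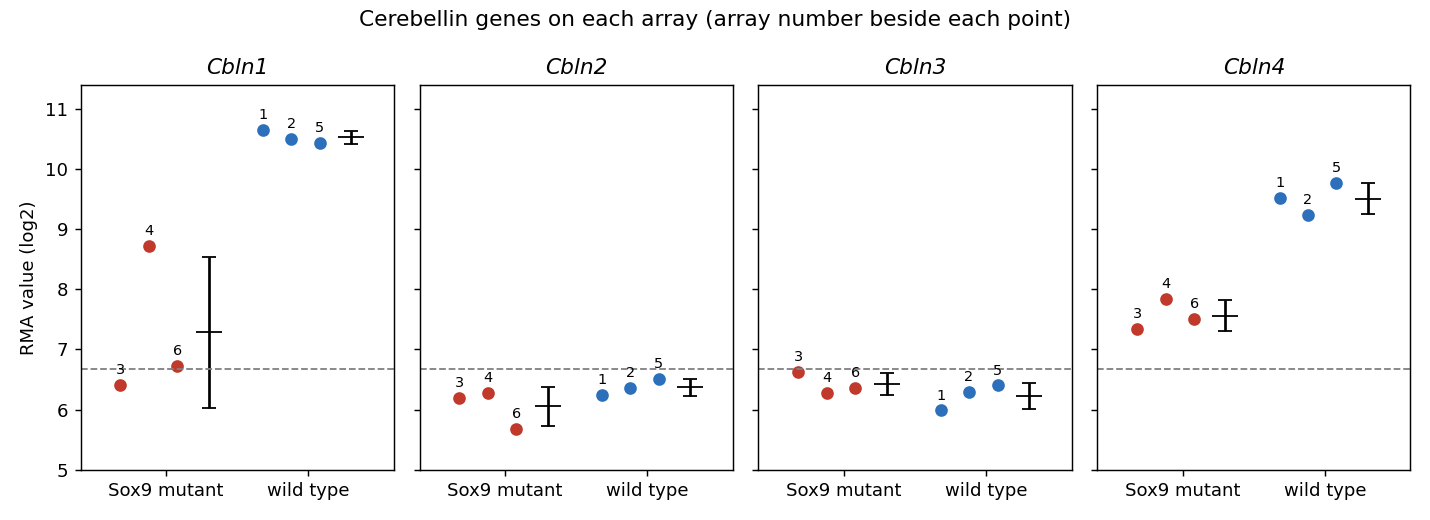
RMA values (log2, vertical axis) of the 4 cerebellin genes on each of the 3 Sox9 mutant (red) and 3 wild-type (blue) arrays, with the array number above each point, the mean and SD as a bar beside each group and the background mark of 6.67 log2 as a dashed line. Cbln1 and Cbln4 have separate groups, with mutant 4 the highest mutant array of both, and all values of Cbln2 and Cbln3 lie below the mark.

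Leaving out arrays could not change the direction for Cbln1 and Cbln4, whose groups did not overlap, so only the sizes are of interest. Without mutant 3 and wild type 5 together, Cbln1 differed by -2.85 log2, Cbln2 by -0.32 log2, Cbln3 by 0.18 log2 and Cbln4 by -1.71 log2. Without mutant 4 the Cbln1 difference was -3.96 log2, which is 15.6-fold in place of 9.48-fold, while that of Cbln4 was -2.09 log2. Arrays numbered 1 to 4 alone gave -3.01 log2 for Cbln1 and -1.79 log2 for Cbln4.

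Mutant 4 was the highest of the 3 mutant arrays for Cbln1, Cbln4 and Sox9, and mutant 3 the lowest. The mutant range of Sox9 was 0.26 log2, narrower than its wild-type range of 0.39 log2, so nothing is read from its order. Relative to the wild-type mean, Cbln1 differed by -4.12, -1.81 and -3.80 log2 on mutants 3, 4 and 6, and Cbln4 by -2.18, -1.67 and -2.01 log2. Among marker genes of Sertoli cells mutant 4 was again mostly the highest mutant, but the median of the list was lowest on mutant 6. Of 16 such genes 12 fell, none rose and 4 did not pass (limma, Benjamini-Hochberg adjusted over 28187 probe sets), where 4.30% of all genes were lower past this threshold. The marker lists were chosen with earlier results of these data known, so their counts are a description. The 4 were Fgf9, Sox10, Cldn11 and Dmrt1. The 12 were Amh, Cst9, Hsd17b3, Aard, Dhh, Ptgds, Cyp26b1, Clu, Mro, Erbb4, Hsd17b1 and Sox8, with differences from -4.33 to -1.02 log2. The call of Hsd17b1 was lost without wild type 1 or 2 (limma adjusted p = 0.0650 and 0.0511). All 12 had their highest mutant value on mutant 4, as did 66.0% of the 857 genes that were lower over the whole array. The list's median deviation from wild type was -1.53, -0.96 and -1.68 log2 on mutants 3, 4 and 6, and its median difference -1.39 log2, with 0.0041 log2 for all genes. Amh, which encodes anti-Müllerian hormone, had a mutant range of 3.02 log2, the widest of the 12, and Hsd17b1, an enzyme that reduces estrone to estradiol, the narrowest at 0.48 log2. The mutant ranges of Cbln1 and Cbln4, at 2.31 and 0.51 log2, lay within these bounds.

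Summed as linear intensity, the Sertoli list ran from 3628 to 6352 in the mutant and from 15944 to 16269 in wild type. All 4 measured Leydig cell genes, the steroid synthesis genes Cyp11a1, Cyp17a1, Star and Hsd3b1, fell, with medians of -4.66, -2.05 and -4.73 log2 on mutants 3, 4 and 6. Their summed intensity was 365 to 3082 in the mutant and 11809 to 12947 in wild type. Of 10 pregranulosa genes, which mark the supporting cells of the fetal ovary, 9 rose, where 2.64% of all genes did, none fell and Gng13 did not pass (6.64 log2 in the mutant and 6.50 log2 in wild type), and the list had summed intensities of 5126 to 6033 in the mutant and 1560 to 1662 in wild type. The risers were Fst, Bmp2, Runx1, Irx3, Lgr5, Rspo1, Msx1, Foxl2 and Wnt4, by 1.12 to 3.62 log2. This list too was chosen with earlier results known, so its count is a description. Of the other marker lists, Dnd1 fell among 5 germ cell genes, and Gata3 rose and Lhx1 fell among 4 mesonephric genes. None of 6 liver, 5 endothelial and 4 macrophage genes passed in the limma fit. An unadjusted p under 0.05 in that fit was reached by 4324 of all 19937 genes, and by 1, 3 and 0 of these. Among these marker genes, single arrays left out ended the calls of Cyp17a1 (mutant 3 or any wild type, limma adjusted p from 0.0619 to 0.0827), Dnd1 (any array but mutant 6, 0.0582 to 0.167) and Lhx1 (mutant 3, wild type 1 or wild type 2, 0.0645 to 0.0835). The part of these cell types in the lower cerebellin values was not tested. In RNA of whole gonads, fewer cells of a type and less RNA per cell cannot be told apart.

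**Figure D2:**
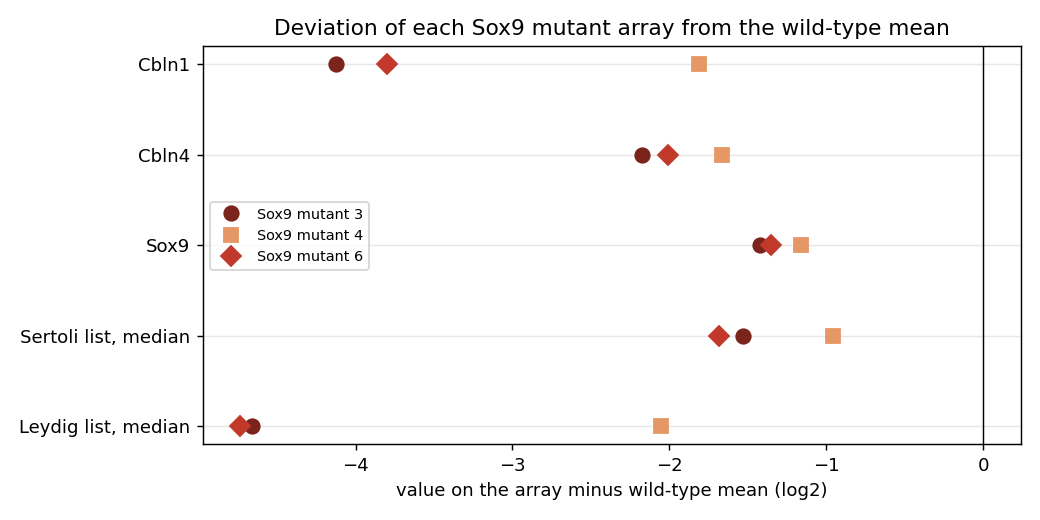
Deviation of each Sox9 mutant array from the wild-type mean (log2, horizontal axis) for Cbln1, Cbln4, Sox9 and the medians of the Sertoli and Leydig marker lists, 1 symbol per mutant array. In each row mutant 4 lies closest to 0, by -1.81 log2 for Cbln1 and -1.67 log2 for Cbln4.

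Markers of the neurons in which cerebellins are best known were mostly at or near background. Both group means lay below the mark for 6 of 7 markers of cerebellar granule neurons and for 6 of 9 neuronal markers. The granule markers with the highest means were Barhl1 (6.72 ± 0.11 log2 in the mutant and 6.66 ± 0.25 log2 in wild type) and Pax6 (6.48 ± 0.04 log2 in the mutant and 6.08 ± 0.08 log2 in wild type; SD, n = 3 each), both transcription factors. The neuronal markers with the highest means were Gap43, a protein of growing axons (8.01 ± 0.22 log2 in the mutant and 7.81 ± 0.22 log2 in wild type), and Elavl3, an RNA-binding protein of neurons (7.32 ± 0.15 log2 in the mutant and 7.14 ± 0.02 log2 in wild type). None of the 16 genes passed in the limma fit. An unadjusted p under 0.05 in that fit was reached by 3 neuronal and 1 granule marker, and by 4324 of all 19937 genes. With array weights or with numbers 5 and 6 as a batch 2 of the 16 markers rose, as 2 did without mutant 6.

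Genes that encode binding partners of cerebellins showed 1 difference past the threshold. Neo1, which encodes neogenin, a receptor for netrins and a partner of Cbln4 in the mouse brain, was higher in the mutant, at 10.87, 10.64 and 10.68 log2 on mutants 3, 4 and 6 against 10.21, 10.22 and 9.99 log2 on wild types 1, 2 and 5. The rise was 0.59 ± 0.12 log2 (SE), with a limma adjusted p = 0.025 and no overlap between the groups. That call was lost without any single array except mutant 6, with limma adjusted p of 0.0938 and 0.0536 without mutants 3 and 4, and 0.0786, 0.0623 and 0.0820 without wild types 1, 2 and 5. The difference then ran from 0.51 to 0.63 log2.

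The remaining 4 measured partners did not pass. Nrxn2 and Nrxn3, presynaptic neurexins, measured 6.87 ± 0.09 and 6.59 ± 0.26 log2 in the mutant, and 7.07 ± 0.06 and 6.77 ± 0.14 log2 in wild type (SD, n = 3 each; limma adjusted p = 0.361 and 0.584). Grid1, the delta receptor GluD1, measured 6.69 ± 0.07 log2 in the mutant and 6.51 ± 0.36 log2 in wild type (adjusted p = 0.653 in the limma fit). Dcc, the netrin receptor that Cbln4 can also bind, measured 6.13 ± 0.12 log2 in the mutant and 6.20 ± 0.05 log2 in wild type, below the background mark on all 6 arrays (limma adjusted p = 0.814). Over the 5 partners the median difference was -0.07 log2, and 1 of 5 passed where 6.94% of all genes did.

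Other genes with a C1q domain, taken with Adgrb3, the receptor of the C1q-like proteins, were mostly without a difference that passed. Of 26 measured genes 1 fell, none rose and 25 did not pass, where 4.30% of all genes fell and 2.64% rose. Nothing is read from this count. The median difference was -0.03 log2, and both group means of 8 genes lay below the mark. The gene that fell was C1qtnf3, a secreted C1q and TNF related protein. It measured 6.47, 6.87 and 6.40 log2 on mutants 3, 4 and 6, against 7.42, 7.25 and 7.09 log2 on wild types 1, 2 and 5, so the groups did not overlap. This fall was -0.67 ± 0.15 log2 (SE), with a limma adjusted p = 0.0355. The call of C1qtnf3 was lost without any single array except mutant 4, with limma adjusted p of 0.132 and 0.0756 without mutants 3 and 6, and 0.151, 0.0991 and 0.0562 without wild types 1, 2 and 5. Emilin1, an elastic fibre glycoprotein named here after its values were seen, had a difference of -0.56 ± 0.14 log2 (SE; limma adjusted p = 0.0536). The closest relatives of the cerebellins, C1ql1 to C1ql4, had differences from -0.34 to 0.30 log2, none past the threshold.

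**Figure D3:**
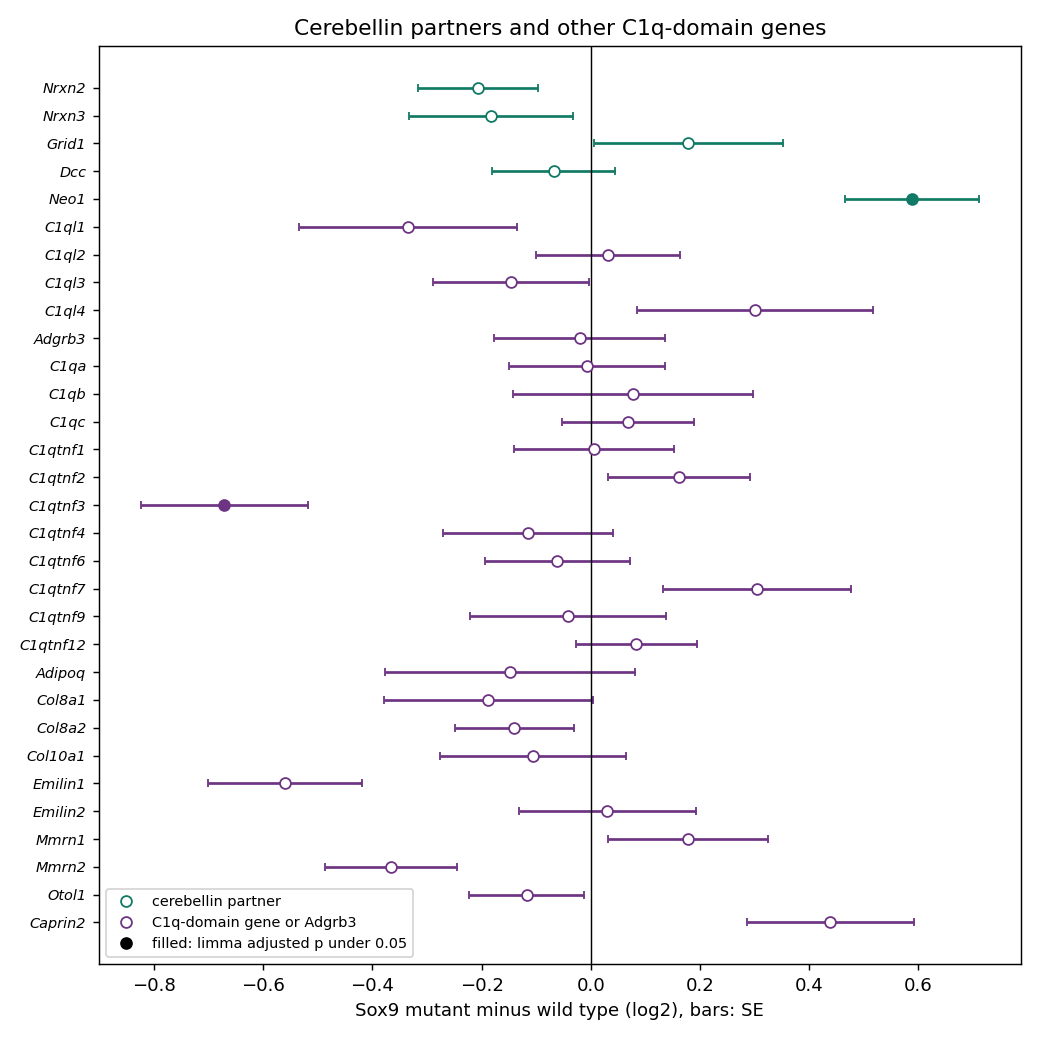
Difference between Sox9 mutant and wild type (log2, horizontal axis, bars: SE) for 5 cerebellin partners (green) and 26 other genes of the C1q list (purple), filled where the limma adjusted p was under 0.05. Neo1, at 0.59 log2, and C1qtnf3, at -0.67 log2, are the 2 filled points.

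The 4 cerebellin genes lie on different chromosomes, and the 5 nearest measured protein-coding genes on each side were read from the gene order of the GRCm38.p6 table. Of these 40 neighbours 3 fell, none rose and 37 did not pass, where 6.94% of all genes passed in either direction, and their median difference was -0.08 log2. Around Cbln1 the differences ran from -0.55 to 0.19 log2. Immediately beside it, N4bp1 measured 10.41 ± 0.06 log2 in the mutant and 10.51 ± 0.18 log2 in wild type (SD, n = 3 each; limma adjusted p = 0.719). The neighbour that passed was Zfp423, a zinc finger transcription factor, at 8.38, 8.35 and 8.39 log2 on mutants 3, 4 and 6, against 8.73, 9.02 and 9.02 log2 on wild types 1, 2 and 5. Zfp423 differed by -0.55 ± 0.12 log2 (SE), with a limma adjusted p = 0.0305.

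Around Cbln4 the differences ran from -0.76 to 0.44 log2. The lowest was that of Aurka, named here after its values were seen, which did not pass (limma adjusted p = 0.0528). Its immediate neighbours Dok5, a docking protein of receptor tyrosine kinases, and Mc3r, a melanocortin receptor, differed by -0.08 and -0.05 log2 and did not pass. Tshz2, a teashirt zinc finger gene 5 measured genes away, fell by 0.58 ± 0.12 log2 (SE; limma adjusted p = 0.0219). Around Cbln2 none of 10 passed, with differences from -0.48 to 0.55 log2. Around Cbln3 the 1 that passed was Nfatc4, a calcium-regulated transcription factor, which fell by 0.54 ± 0.13 log2 (SE; limma adjusted p = 0.0453). All 3 calls were lost when single arrays were left out, that of Nfatc4 with any of the 6 (limma adjusted p from 0.0507 to 0.165). The call of Zfp423 was lost without any 1 but wild type 1, with limma adjusted p of 0.0954, 0.0980 and 0.0542 without mutants 3, 4 and 6 and 0.110 and 0.0981 without wild types 2 and 5, and with quantile normalization (0.0655). That of Tshz2 was lost without mutant 3 (0.0851), wild type 1 (0.100) or wild type 2 (0.0767), and with the mean of its probe sets (0.0550; limma adjusted p).

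**Figure D4:**
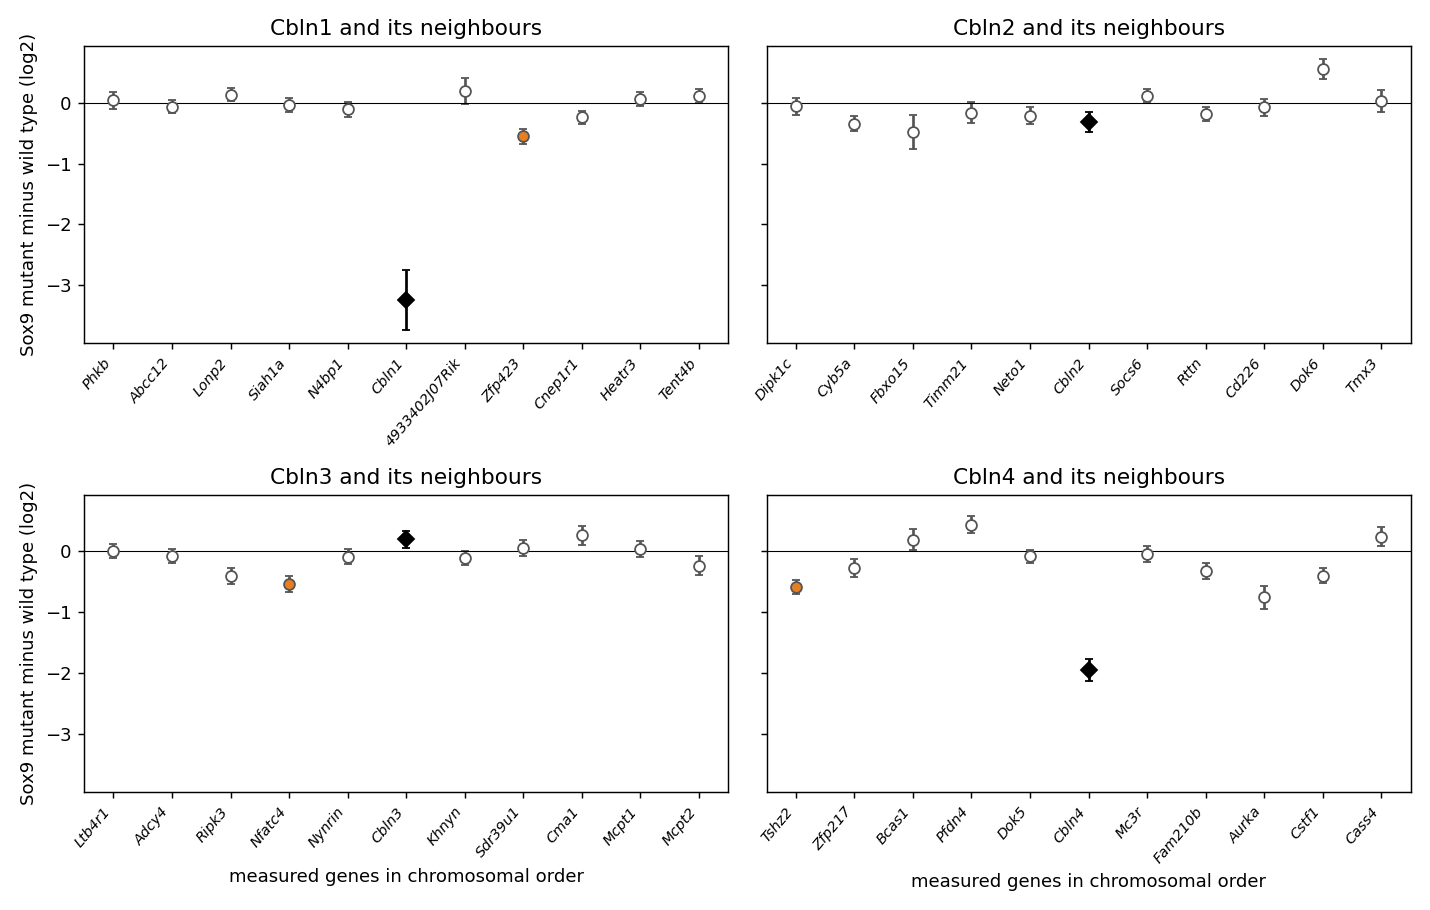
Difference between Sox9 mutant and wild type (log2, vertical axis, bars: SE) for each cerebellin gene (black diamond) and the 5 measured protein-coding genes on either side in chromosomal order, orange where the limma adjusted p of a neighbour was under 0.05. Cbln1 and Cbln4, at -3.25 and -1.95 log2, lie below all of their neighbours, whose differences run from -0.76 to 0.55 log2 over the 4 loci.

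Genes of similar profile were found among 18614 genes by the root mean square difference between deviations from the own wild-type mean over the 6 arrays. These were chosen for their likeness in the same contrast, so they are a description without a test. The 8 nearest to Cbln1 included genes of the Sertoli and of the Leydig list. The nearest was Hsd17b3 (0.25 log2, Pearson r over 0.99 across the 6 arrays), which makes testosterone from androstenedione and is expressed in fetal Sertoli cells. It measured 5.30, 7.49 and 5.19 log2 on mutants 3, 4 and 6, against 9.68, 9.60 and 9.22 log2 on wild types 1, 2 and 5, so mutant 4 again stood between. Next came Star (0.26 log2), the carrier of cholesterol into Leydig cell mitochondria, with Aard (0.36 log2) and Adh1 (0.39 log2), an alcohol dehydrogenase. Hhip, a Hedgehog target (0.47 log2), Defb19, a beta-defensin (0.54 log2), Ephx1, an epoxide hydrolase (0.58 log2), and Cst9, a cystatin (0.68 log2), completed the 8, with r from 0.97 to 0.99 for the 7 after Hsd17b3.

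Likeness was measured in absolute log2, and Cbln1 and Cbln4 differed too unequally for their lists of 8 to share a gene. Nothing is read from the lack of overlap. The 8 nearest to Cbln4 lay at smaller distances. They were Padi2, a protein arginine deiminase (0.13 log2), Pak3, a p21-activated kinase (0.13 log2), Kazald1, a secreted Kazal-type protein (0.14 log2), and Mmd2 (0.16 log2). Alas1, the first enzyme of heme synthesis (0.18 log2), Otx2, a homeobox gene (0.18 log2), Hao2, a hydroxyacid oxidase (0.19 log2), and Col14a1, a collagen (0.20 log2), followed, with r from 0.98 to 0.99. Padi2 measured 6.42, 6.68 and 6.27 log2 on mutants 3, 4 and 6, against 8.50, 8.18 and 8.48 log2 on wild types 1, 2 and 5. For Cbln2 and Cbln3, which lay below background, profiles as near as 0.07 and 0.03 log2 were found (Apobec2 and Mrm1), and an olfactory receptor, Olfr523, was the third nearest to Cbln3 (0.04 log2). With 2 groups of 3 arrays, any gene with a large difference of the same sign correlates with Cbln1 and Cbln4.

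**Figure D5:**
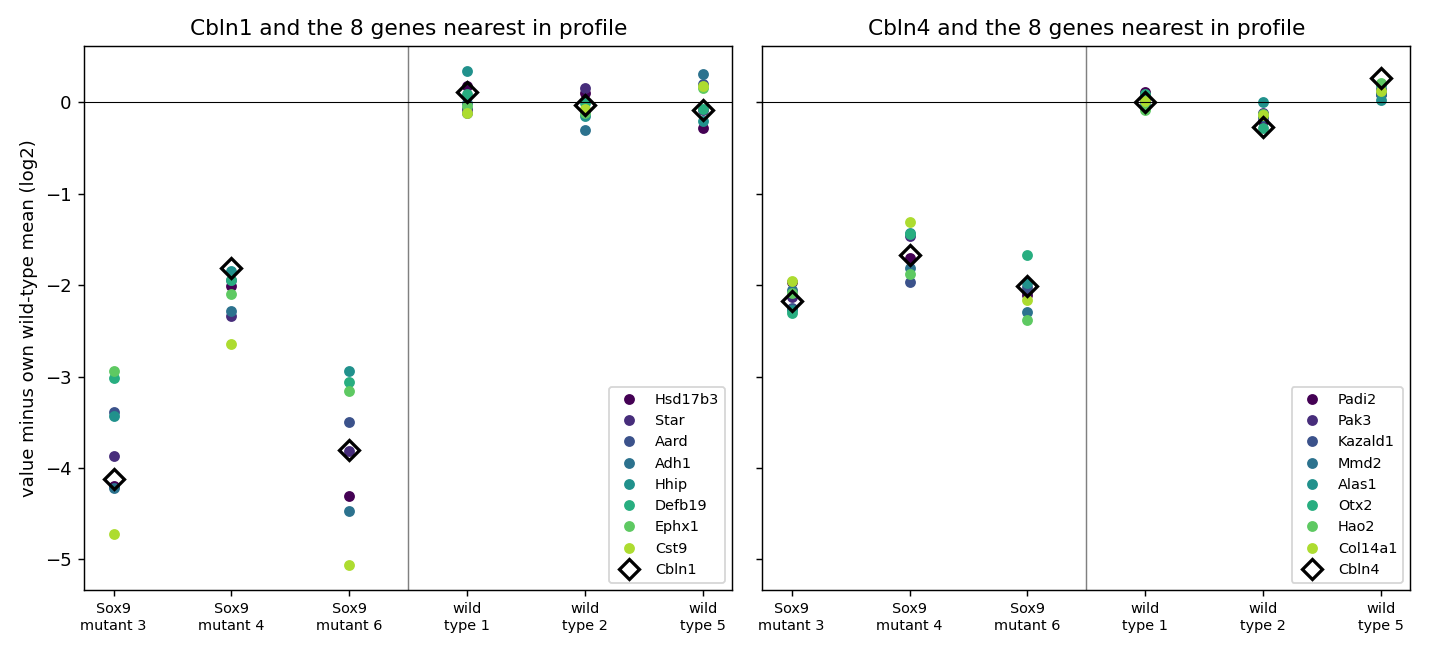
Deviation from the own wild-type mean (log2, vertical axis) on each of the 3 Sox9 mutant and 3 wild-type arrays for Cbln1 and Cbln4 (open diamonds) and the 8 genes nearest in profile to each (filled circles). Around Cbln1 mutant 4 stands above mutants 3 and 6 for every gene shown, and around Cbln4 the mutant arrays lie closer together.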

How the data were processed

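RNA of gonad pools was labelled from 300 ng of total RNA and hybridised to Affymetrix arrays, 1 array per pool. The deposited values are on the log2 scale, and the submitters' processing notes name RMA; no version or settings are given in the sources used here. The files carry no scanner signals. Separately, the number of arrays, 3 in each group, limits the precision.

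Of 34760 rows, 6573 with identifiers below the first annotated one were left out as controls, leaving 28187 probe sets (21640 with 1 gene, 1321 with several, 5226 with none in the annotation used). A gene was read from its brightest probe set. Mutant and wild type were set against each other in limma 3.58.1, under R 4.3.3 (lmFit, eBayes, 2-sided, adjusted by Benjamini-Hochberg over all probe sets, threshold 0.05), tested on simulated data. Cerebellin genes, lists, neighbours and alternatives were chosen with earlier results of these data known. Genes named were the cerebellins, Sox9, all partners, list members and neighbours past the threshold (where none passed, the 2 brightest), and the 8 nearest profiles. Alternatives were other scalings, a filter on dim probe sets, trend and robust, array weights, a batch of numbers 5 and 6, subsets of arrays, 0.01 as threshold and means of probe sets. Figures were drawn with matplotlib 3.10.9.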

Additional observations from a re-analysis of the deposited data

How the results depend on the processing

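No paired analysis was possible because the mutant and wild-type arrays share no number in the labels. Over 13 alternatives the differences of Cbln1, Cbln3 and Cbln4 lay within -4.01 to -2.79, 0.08 to 0.35 and -2.09 to -1.71 log2. Each moved by less than the replicate SD, a wide measure for Cbln1, whose mutant SD was 1.25 log2. The groups of Cbln1 and Cbln4 did not overlap, so leaving arrays out could not change their sign. The batch term, with an array of each genotype, returned the same differences. Nothing is read from the kept signs, and Cbln3 lay below the background mark. The difference of Cbln2 kept its sign but was -0.0591 log2 among numbers 1 to 4 alone. Sox9 passed in all 16 alternatives (limma adjusted p from 2.49e-04 to 0.0188), and the Sertoli and pregranulosa counts held, at 10 to 14 and at 9. Leaving out 1 array gave 684 to 1564 probe sets past the threshold in place of 1611, 0 to 1 partner, 0 to 1 C1q-domain gene, 0 to 2 neighbours and 0 to 2 neuronal or granule markers. Over all probe sets the count was 600 at an adjusted p under 0.01, 2504 with numbers 5 and 6 as a batch, 483 without arrays 3 and 5 and 711 without arrays 4 and 5, these 2 subsets chosen after seeing the data. The 1 partner and the 3 neighbours became 0 at 0.01 and in both those subsets. Among numbers 1 to 4 alone 0 partners and 1 neighbour passed, which was Aurka, and none of Zfp423, Nfatc4 and Tshz2. The neighbours were 4, Aurka and those 3, above the background mark, with a common median, array weights, the batch or trend and robust. Aurka was named after its values were seen. The C1q count of 1 was 0 at 0.01, without arrays 3 and 5 and among numbers 1 to 4, and 2 above the background mark, with a common median, the mean of probe sets, the batch or trend and robust. The neuronal and granule count of 0 was 2 with array weights or the batch, and 1 with the mean of probe sets or among numbers 1 to 4. Why these counts moved was not tested, beyond the fewer arrays of the subsets.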
